A study of Mus musculus with 6 samples.

Results

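The extracellular matrix and integrin genes of the mouse nucleus accumbens (NAc) are described here by the transcript variants assembled from them. The set holds 100 protein-coding genes, chosen by symbol from GENCODE release M21: every collagen, laminin, integrin and Hapln symbol, together with Fn1, Tnc, Tnr, Ncan, Vcan, Bcan, Acan, Agrn and Hspg2. Of the 100 genes, 98 were listed in at least 1 library, out of 16154 listed genes in all. The symbol rule also caught 5 genes that code for neither collagen chains nor integrin subunits (Col4a3bp, Itgb1bp1, Itgb1bp2, Itgb3bp and Itgbl1), and leaving them out is one of the alternative settings.

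The samples were libraries of NAc tissue, a ventral striatal part of the reward circuit, from adult male C57BL/6N mice that had been through place conditioning (CPP), where an injection is paired with one compartment of a chamber. Mice of the morphine group (3 libraries) received intraperitoneal morphine in sessions that alternated with saline, those of the saline group (3 libraries) received saline, and tissue was taken after the preference test. No engineered allele is named for either group. The series description gives more mice than samples in a group while the study's figure text gives a single mouse for each library, so the p-values below measure the spread between libraries only.

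For each library the deposited data list events, meaning places where assembled transcripts of a gene differ or end: transcript starts and ends, skipped exons, retained introns and alternative exon ends. A list records presence, not level. A skipped exon or retained intron is listed where forms with and without it were both assembled. An event that is missing from a list was not assembled there, which is not evidence that it was absent from the tissue. The exon or intron concerned may then have been always included or always left out. In bulk tissue, fewer cells of a type and less RNA per cell cannot be told apart. Libraries held 54660 to 62209 events in 14243 to 14956 genes, and their relative depth ranged from 1 in saline replicate 1 to 1.59 in morphine replicate 2. All 10 striatal projection neuron markers were listed in all 6 libraries, as were all 7 leptomeningeal markers, and 5 of 7 choroid plexus markers, with the choroid plexus list holding 17, 12 and 15 events in saline and 19, 18 and 15 in morphine.

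As background, matrix in the brain has distinct compartments. Basement membranes around vessels and under the meninges are built of type IV collagen, laminins, agrin and perlecan. The space between neurons is filled instead by hyaluronan bound to the lecticans (aggrecan, brevican, neurocan and versican), which link proteins of the Hapln family and tenascins tie into perineuronal nets. Integrins, dimers of an alpha and a beta subunit, bind matrix at the cell surface. Several of these proteins are known for alternative exons that change what they bind.

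The alternative exons on which the results turn are shown first, because their length and sequence define the protein forms. All positions are from 1 on GRCm38 and all sequences come from the GENCODE M21 transcripts, read 5′ to 3′ on the gene's strand. In the first set the capitals mark the skipped exon and the lower-case letters are the 10 bases of the neighbouring exons on either side. The 3 short agrin exons are shown because they code for the y and z inserts near the protein's end, the z inserts being the neuronal form that clusters acetylcholine receptors at the nerve-muscle junction. They lie on the minus strand at chr4:156169546-156169557, chr4:156168546-156168569 and chr4:156167777-156167809.
Agrn 12-nucleotide exon: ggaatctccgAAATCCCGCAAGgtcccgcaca
Agrn 24-nucleotide exon: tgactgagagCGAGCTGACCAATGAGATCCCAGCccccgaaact
Agrn 33-nucleotide exon: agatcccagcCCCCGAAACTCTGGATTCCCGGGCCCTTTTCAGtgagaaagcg

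The fibronectin exons are shown because each adds a whole type III repeat, the extra domains EDB and EDA. They lie on the minus strand at chr1:71613763-71614035 (EDB) and chr1:71603660-71603929 (EDA), and add 91 and 90 residues.
Fn1 EDB exon: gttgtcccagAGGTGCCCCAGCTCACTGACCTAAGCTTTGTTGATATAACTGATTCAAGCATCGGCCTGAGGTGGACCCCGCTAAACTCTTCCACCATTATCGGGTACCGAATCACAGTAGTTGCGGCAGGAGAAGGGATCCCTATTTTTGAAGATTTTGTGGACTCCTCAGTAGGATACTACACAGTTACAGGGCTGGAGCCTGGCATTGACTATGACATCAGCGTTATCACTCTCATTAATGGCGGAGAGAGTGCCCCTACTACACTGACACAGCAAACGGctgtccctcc
Fn1 EDA exon: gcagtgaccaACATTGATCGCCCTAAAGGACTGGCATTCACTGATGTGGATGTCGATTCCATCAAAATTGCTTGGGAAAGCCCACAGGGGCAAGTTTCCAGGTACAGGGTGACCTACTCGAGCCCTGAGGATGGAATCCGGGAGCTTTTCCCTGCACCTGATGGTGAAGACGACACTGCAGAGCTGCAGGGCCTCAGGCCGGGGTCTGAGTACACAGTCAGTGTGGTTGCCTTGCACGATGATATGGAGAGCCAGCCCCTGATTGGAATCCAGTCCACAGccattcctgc

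Exons inside a collagen triple helix are shown because of their unit, the Gly-X-Y triplet. In these exons the capitals mark each GGN glycine codon that falls every 9 bases from the exon's first base, N being any base. All 4 such places of the 36-nucleotide exon of Col25a1 (chr3:130575375-130575410, plus strand) held one, as did all 3 of its 27-nucleotide exon (chr3:130584700-130584726) and all 6 of the 54-nucleotide exon of Col19a1 (chr1:24461476-24461529, minus strand). Skipping any of these exons removes whole triplets.
Col25a1 36-nucleotide exon: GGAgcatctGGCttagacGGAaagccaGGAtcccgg
Col25a1 27-nucleotide exon: GGCaaagatGGAgaacctGGTcttgat
Col19a1 54-nucleotide exon: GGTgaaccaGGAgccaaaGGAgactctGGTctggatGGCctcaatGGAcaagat

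A pair of small collagen exons with lengths that are not multiples of 3 is shown for contrast, again with the exon in capitals. They lie in Col4a1 (chr8:11204536-11204552, minus strand) and Col11a1 (chr3:114138171-114138186, plus strand), and the annotation holds each in 1 transcript only, which it marks for nonsense-mediated decay.
Col4a1 17-nucleotide exon: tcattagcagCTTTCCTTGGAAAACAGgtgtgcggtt
Col11a1 16-nucleotide exon: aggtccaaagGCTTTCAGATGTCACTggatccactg

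Fibronectin, a dimeric glycoprotein of plasma and tissue matrix, was listed with 8, 8 and 9 events in saline and 9, 7 and 6 in morphine, which overlap. The EDB exon was listed as skipped in all 6 libraries. The EDA exon was listed as skipped in saline replicates 1 and 2 and in morphine replicates 1 and 2, and in neither replicate 3. In exactly those replicates a transcript start was listed at the EDA exon (71603660) that the annotation does not hold, and the annotated main 3′ end (71586283) was missing. The third variable region of fibronectin appeared as 3 forms of a single exon that share their 3′ edge, 107, 392 and 467 nucleotides long. The 467-nucleotide form was listed in all 6 libraries, the 107-nucleotide form in all but morphine replicate 2 and the 392-nucleotide form in all but morphine replicate 3. All 3 variable regions of fibronectin were therefore listed, in libraries of both groups.

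Versican is a lectican with glycosaminoglycan attachment regions that are carried by a pair of giant exons, whose use gives the forms V0 to V3. The 5217-nucleotide exon (chr13:89688285-89693501, minus strand), coding for 1739 residues, was listed as skipped in all but saline replicate 1. The 2880-nucleotide exon (chr13:89702918-89705797), coding for 960 residues, was listed as skipped in saline replicates 2 and 3 and in morphine replicates 2 and 3. Saline replicate 1, the library of lowest relative depth, listed neither, and the part of depth was not tested. Vcan had 1 start and 3 ends in all 6 libraries, all annotated. It was the only gene of the 98 with more than 1 end in all 6. Its events numbered 4, 6 and 6 in saline and 6, 6 and 10 in morphine, so that the groups shared the value 6.

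Tenascin-R, an oligodendrocyte and neuron product that crosslinks lecticans, was listed with 6, 7 and 7 events in saline and 9, 7 and 6 in morphine, and the groups overlap. Its 477-nucleotide exon (chr1:159851957-159852433, plus strand), coding for 159 residues, was skipped in all libraries but morphine replicate 3. Tnr had a pair of annotated starts in all 6 libraries, at 159524215 and 159737611. Tenascin-C, made mainly by astrocytes and progenitors, had 1 start in all 6 libraries, but its annotated final end (63960543) was listed only in saline replicates 1 and 3 and morphine replicate 2. A Tnc exon of 273 nucleotides was listed as skipped in saline replicate 3 alone.

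The other genes of the perineuronal net varied little. Neurocan (Ncan) had the same annotated start and the same annotated end in all 6 libraries and nothing else. Aggrecan (Acan) also had 2 events in each library, but in morphine replicate 1 its start lay at 79084850, outside the annotated first exons, and not at 79053608. Brevican (Bcan) added to its common start and end a second start in saline replicate 1 and a retained intron of 388 nucleotides in morphine replicate 1. Among the link proteins, which lock lecticans onto hyaluronan, Hapln1 and Hapln3 held 2 or 3 events in every library, and Hapln4 held 3, 3 and 4 in saline and 2, 2 and 5 in morphine. The 11 genes of the net and brain matrix list were listed in all 6 libraries.

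Hapln2, the link protein of the nodes of Ranvier, was the exception among the link proteins. It had 10, 5 and 5 events in saline and 6, 4 and 4 in morphine, with 8 different retained-intron events. Its intron of 211 nucleotides (chr3:88024119-88024329, minus strand) was one of only 2 retained introns of the whole gene set that all 6 libraries listed. It is shown because it recurred, with its first and last 2 bases, the splice sites, in capitals.
Hapln2 intron: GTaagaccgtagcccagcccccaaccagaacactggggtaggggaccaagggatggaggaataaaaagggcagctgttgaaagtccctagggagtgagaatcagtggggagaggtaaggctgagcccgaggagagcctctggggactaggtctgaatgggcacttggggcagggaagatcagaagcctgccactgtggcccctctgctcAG

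Agrin, a heparan sulfate proteoglycan of basement membranes and synapses, had 51 different events, the most of any gene in the set. It was listed with 13, 12 and 18 events in saline and 12, 38 and 23 in morphine. The value in morphine replicate 2, the deepest library, exceeded all the others, while morphine replicate 1 equalled the lowest saline library, so that the groups overlap. In all 6 libraries the 24- and 33-nucleotide exons shown above were listed as a block skipped together. Each of them was also listed as skipped by itself in saline replicates 2 and 3 and in morphine replicates 2 and 3. The 12-nucleotide y exon was listed as skipped in saline replicate 2 and in all 3 morphine libraries. In morphine replicate 2 a version of it extended to 19 nucleotides, which is not annotated, was listed as well.

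A pair of annotated agrin starts, at 156197214 and 156185551, and 1 end were listed in every library. Agrn held 24 retained-intron events, which were 30% of the 80 of all members. An intron listed under several event classes counts once in each. Without regard to class, Agrn had 19 different retained introns or runs of introns, and all members 69. The intron of 412 nucleotides at chr4:156173131-156173542 was retained in all 6 libraries, and the neighbouring intron of 104 nucleotides in saline replicate 1 and all 3 morphine libraries. Most of the other agrin introns were listed as retained in 1 library each.

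**Figure D1:**
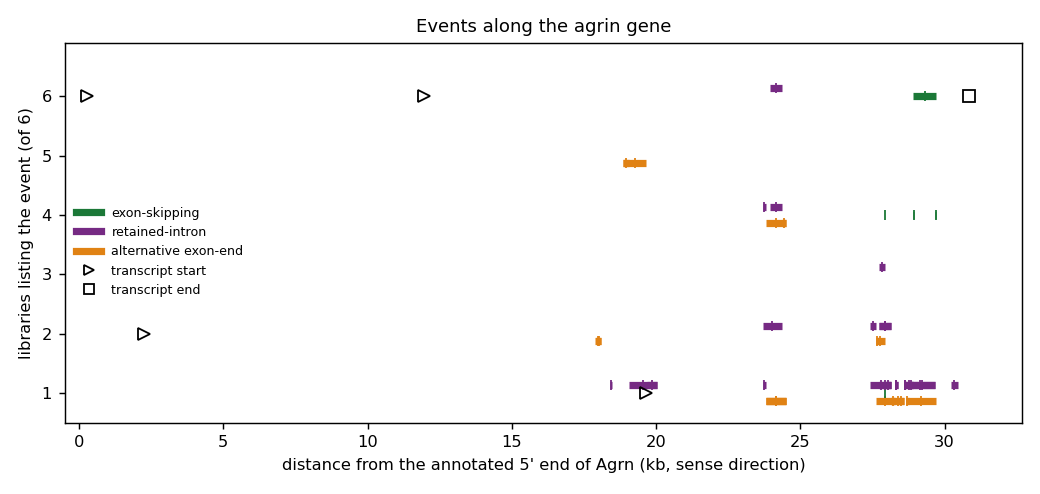
Events along agrin: the x axis is the distance from the annotated 5′ end of the gene in kb, and the y axis is how many of the 6 libraries list the event. Bars are skipped exons (green), retained introns (purple) and alternative exon ends (orange), with small vertical offsets between these families, and symbols are transcript starts and ends. The pair of starts, the end, the 2-exon block and the 412-nucleotide intron reach 6 libraries, and most retained introns stand at 1.

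The laminins, heterotrimers that form the sheet of basement membranes, were all listed in all 6 libraries, as was perlecan (Hspg2), with 2, 2 and 2 events in saline and 4, 3 and 2 in morphine. Lamb1 had 20 different events, of which 14 were starts, and was listed with 5, 3 and 10 events in saline and 5, 6 and 3 in morphine. Lama3, the chain of epithelial laminin, had 2, 3 and 4 events in saline and 5, 2 and 7 in morphine, and no start in all 6 libraries. Lamb2 held 3 or 4 events in each library. Skipping among the laminins was listed only for a 2-exon block of Lama3, in morphine replicate 3.

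Among the 21 fibrillar and associated collagens, 17 were listed in all 6 libraries. Col1a1, Col20a1, Col27a1 and Col9a1 were not. Col11a1 and Col11a2, minor fibrillar chains that set fibril diameter, carried the recurrent skipping of this list. The 16-nucleotide exon of Col11a1 shown above was listed as skipped in all 6 libraries. In Col11a2 a 78-nucleotide exon (chr17:34045771-34045848, plus strand) in the variable amino-terminal region was skipped in all 6. Col11a2 blocks of 2 and 3 exons were skipped in saline replicates 1 and 2 and morphine replicates 1 and 2. The exon of 180 nucleotides in the same region was skipped by itself in morphine replicate 3 only. Col16a1, a fibril-associated collagen, had 3 skipped exons, of 100, 56 and 48 nucleotides, in 3, 1 and 1 libraries. The triplet-repeat exon of Col19a1 was skipped in morphine replicate 3 alone. The 2-exon block of Col1a2, a chain of type I collagen, was skipped in morphine replicate 2 alone. Col9a2 had 5 retained-intron events, each in a single library.

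Of the 23 network-forming, beaded-filament and transmembrane collagens, 16 were listed in all 6 libraries. Col4a1, the main chain of vascular basement membranes, had 3 events in every library: 1 start, 1 end and the 17-nucleotide exon, assembled both included and skipped. Col25a1, a neuronal transmembrane collagen, had 7, 7 and 7 events in saline and 7, 5 and 6 in morphine. Its 36-nucleotide exon was skipped in all 6 libraries. An exon of 81 nucleotides (chr3:130572957-130573037) that the annotation does not hold was listed for Col25a1 in all libraries but morphine replicate 3, both skipped by itself and as a block with the 36-nucleotide exon. The 27-nucleotide exon was listed as skipped in morphine replicate 3 alone. Col6a3 skipped a 585-nucleotide exon in morphine replicate 2. All 6 retained-intron events of Col6a1, a chain of the beaded type VI filament, came from saline replicate 1, which listed 10 Col6a1 events against 2 to 4 in the other libraries.

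Integrin alpha subunits were the most unevenly listed of the gene lists, with 10 of 18 in all 6 libraries. Of all listed genes of the set 78.6% were in all 6, and of all listed genes in the series 81.6%. The 8 others were Itga2, Itga2b, Itga5, Itga8, Itgad, Itgae, Itgal and Itgax, of which Itga2b is the platelet subunit and Itgad, Itgae, Itgal and Itgax are leukocyte subunits. Other subunits of leukocytes, Itgam, Itga4, Itgb2 and Itgb7, were listed in all 6 libraries. All 7 microglia and leukocyte markers were listed in all 6 libraries. The alpha 3 and alpha 6 subunits are laminin receptors with alternative cytoplasmic tails. The tail exon of Itga3 (142 nucleotides, chr11:95046449-95046590, minus strand) was skipped in all 6 libraries. The matching exon of Itga6 (130 nucleotides, chr2:71853534-71853663, plus strand) was skipped in all but morphine replicate 3. Both exons end the reading frame inside themselves. Their coding parts, of 108 and 105 nucleotides, are shown with the 12 bases that form the longest stretch in common in capitals.
Itga3 tail: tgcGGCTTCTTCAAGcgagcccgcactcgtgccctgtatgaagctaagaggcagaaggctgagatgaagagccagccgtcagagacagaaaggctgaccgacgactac
Itga6 tail: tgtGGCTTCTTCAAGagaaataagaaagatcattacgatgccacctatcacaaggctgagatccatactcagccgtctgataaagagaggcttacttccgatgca

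Among the integrin beta subunits, Itgb2l and Itgb6 were listed in no library, and Itgb3 was missing from saline replicate 2. Itgb1, the partner of most alpha subunits, had the same single start and end in all 6 libraries, and so did Itgav among the alpha subunits. Itgb4, the partner of alpha 6 in hemidesmosomes, had 6 retained-intron events and was listed with 2, 2 and 7 events in saline and 8, 5 and 4 in morphine. Its exon of 159 nucleotides was skipped in morphine replicates 1 and 2. An exon of 86 nucleotides of Itgb8, which activates latent TGF-beta with alpha v, was skipped in saline replicate 2 and morphine replicate 2. An exon of 89 nucleotides of Itgb2, the leukocyte beta subunit, was skipped in saline replicate 3.

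**Figure D2:**
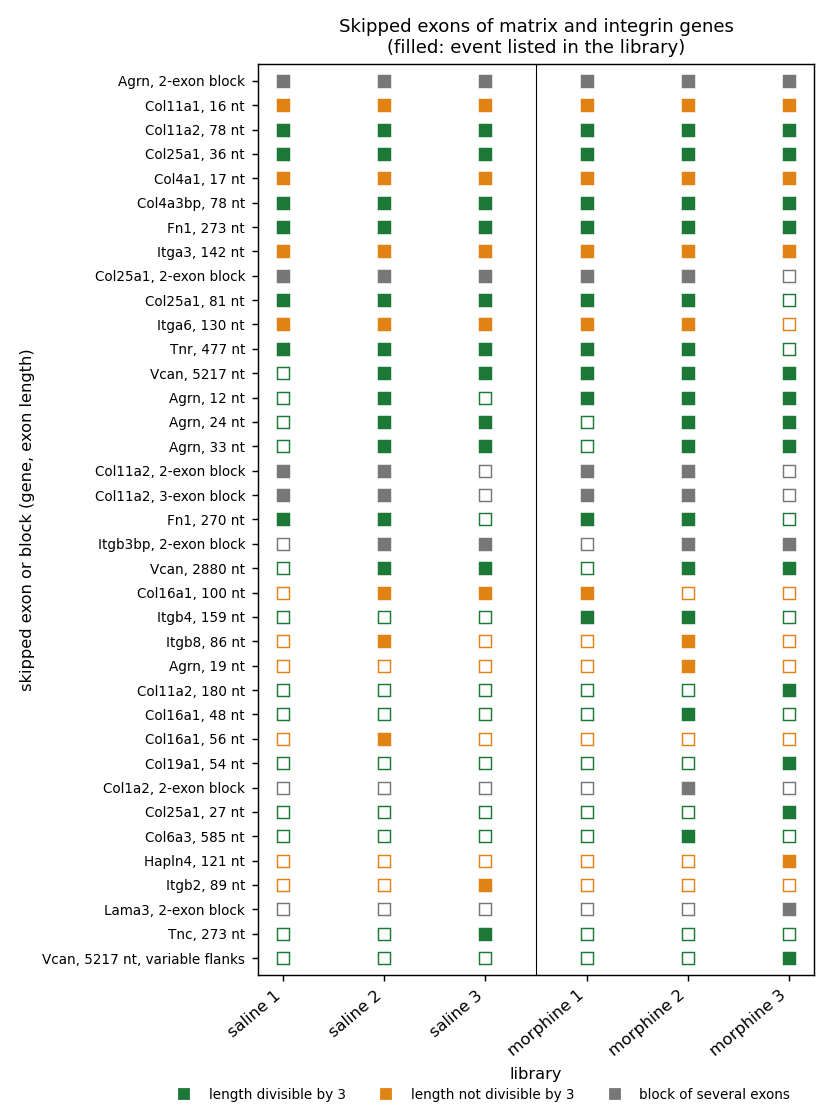
Every exon or block of exons listed as skipped in the 98 listed genes, 1 row each, by library (x axis). A filled square means that the library lists the event, green marks lengths divisible by 3, orange other lengths and grey blocks of several exons. Rows run from the 8 events listed in all 6 libraries at the top to the 13 listed in a single library at the bottom, and variable flanks means that the edges of the neighbouring exons differ between the forms.

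Across the set, 22 genes had a skipped exon or block, 26 had a retained intron and 59 had neither. In 19 genes each of the 6 libraries held exactly 2 events. There were 29 different single skipped exons, of which 26 matched an annotated exon. Of the 29, 19 had a length divisible by 3, and of the 16 listed in at least 4 libraries, 12 did. The 7 single exons listed in all 6 libraries were in Fn1, Col11a1, Col11a2, Col25a1, Col4a1, Itga3 and Col4a3bp, a lipid transfer protein caught only by its symbol, and 4 of these 7 were in frame.

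The in-frame share was compared with that of all other protein-coding genes within each library. In saline, 7 of 11, 12 of 19 and 11 of 17 single skipped exons were in frame, and in morphine 10 of 15, 15 of 21 and 12 of 16. The mean share was 67.4% ± 4.77 (SD, n = 6 libraries) against 57.7% ± 0.565 in the other genes, and it was higher in all 6 libraries (two-sided exact paired permutation test, p = 0.031, adjusted p = 0.031 over 5 comparisons, the smallest p that 6 pairs allow). The in-frame shares of the morphine libraries all lay above those of the saline libraries, which was not among the comparisons fixed and was not tested. In the other protein-coding genes the shares lay the other way, at 58.7%, 57.96% and 57.8% in saline and 57.4%, 57.1% and 57.4% in morphine. As the same exons recur in all libraries, the test covers the spread between libraries and not that between genes.

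The other 4 measures of this comparison were lower in the matrix and integrin genes in all 6 libraries. Skipped-exon events per listed gene were 0.228 ± 0.0444 against 0.411 ± 0.0111, although the median number of annotated exons was 31.5 against 9. Retained-intron events per listed gene were 0.196 ± 0.0601 against 0.484 ± 0.113. Starts per listed gene were 1.29 ± 0.0648 against 1.53 ± 0.0331, and ends 1.13 ± 0.0186 against 1.17 ± 0.0149 (SD, n = 6; exact paired permutation tests, each p = 0.031 and adjusted p = 0.031). The part of expression level in these differences was not tested, since the lists give no level.

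**Figure D3:**
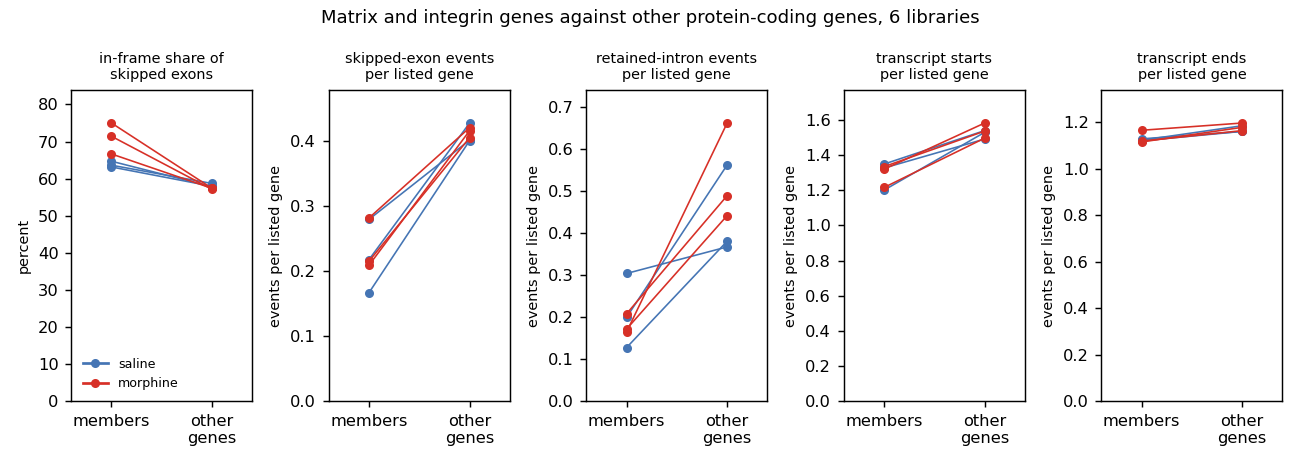
The 5 measures on which the matrix and integrin genes (members) were compared with other protein-coding genes, 1 line per library, saline in blue and morphine in red, with all y axes starting at 0. Every line falls from members to other genes for the in-frame share (percent) and rises for the 4 counts per listed gene.

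The recurrence of events is given by family. Of 37 exon-skipping events, 35.1% were listed in a single library, against 44.2% of all such events in the series. Of 561 transcript starts and ends, 59.9% were listed in a single library, against 43.2%, and of 80 retained-intron events 81.25%, against 67.5%. Of 51 alternative exon ends, 62.7% were listed in a single library, against 61.5%. In all 6 libraries were 21.6% of the exon-skipping events (19.7% in the series), 17.1% of the starts and ends (29.8%), 2.5% of the retained introns (1.70%) and 5.88% of the alternative exon ends (9.09%). The retained introns of the set were also short, with a median of 245 nucleotides against 746 in the other protein-coding genes. Only 26 of the 98 listed genes had any, and Agrn alone held 30% of the retained-intron events. These shares are a description without a test.

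Of 319 different starts, 48 were listed in all 6 libraries and 47 of these lay at an annotated first exon, while of 203 starts listed in 1 library 23 did. On average 63.6% ± 2.88 of the starts of a library were at an annotated position, against 77.9% ± 1.48 for other protein-coding genes, and 75.1% ± 2.97 of the ends against 82.97% ± 1.29. Both differences had the same direction in all libraries (SD, n = 6; exact paired permutation tests, p = 0.031 each), and this pair was chosen after the data were seen. No start was common to all 6 libraries in 34 of the 77 genes that were listed in all of them. Agrn, Tnr, Col11a1, Col16a1 and Itgb1bp1 had a pair of starts in all 6.

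The comparison of the groups asked whether the variants of these genes differed after morphine CPP training. The number of listed genes was 90, 86 and 92 in saline and 91, 96 and 93 in morphine, and the events were 259, 261 and 290 in saline and 269, 305 and 272 in morphine. Both ranges overlap. The means were 89.3 ± 3.06 and 93.3 ± 2.52 genes (SD, n = 3 per group; two-sided exact permutation test, p = 0.2) and 270 ± 17.3 and 282 ± 19.98 events (exact permutation test, p = 0.5). The difference of 12 events was 0.5 without morphine replicate 2 and 22 without saline replicate 3, and 0 for events in at least 2 libraries. With 3 against 3 libraries no p under 0.1 can be reached.

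By family, exon-skipping events numbered 15, 24 and 20 in saline and 19, 27 and 20 in morphine (exact permutation test, p = 0.7). Retained introns numbered 18, 11 and 28 in saline and 15, 20 and 16 in morphine (exact permutation test, p = 0.8), with saline replicate 3 the highest and saline replicate 2 the lowest. Alternative exon ends numbered 17, 15 and 15 against 9, 23 and 19 (exact permutation test, p = 0.9). Starts and ends together numbered 209, 211 and 227 against 226, 235 and 217 (exact permutation test, p = 0.3). All of these ranges overlap, and saline replicate 1 was the shallowest and morphine replicate 2 the deepest library.

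With all events counted, the event numbers of the groups also overlapped in all 6 gene lists. The laminin and basement membrane list had 42, 43 and 62 events in saline and 53, 76 and 57 in morphine, a mean 26.5% higher in morphine (49 ± 11.3 against 62 ± 12.3, SD, n = 3; exact permutation test, p = 0.3). The difference of 13 events was 6 without morphine replicate 2, 19.5 without saline replicate 3, 7 for events in at least 2 libraries and 2.84 after division by relative depth. For events in at least 2 libraries every morphine library lay above every saline library (exact permutation test, p = 0.1, the smallest possible). Agrn held 38 of the 76 events of morphine replicate 2, against 12 and 23 events in the other morphine libraries. In saline replicate 3 it held 18 of 62. There Lamb1 had 10 events, against 5 and 3 in the other saline libraries, and Lama1 had 6, against 2 and 2. The means of the other 5 lists differed by at most 2 events, with exact permutation p-values from 0.6 to 1. Over all 13 group comparisons the smallest adjusted p was 0.945. Total matrix and integrin events made up 0.477% ± 0.031 of all events in saline and 0.472% ± 0.036 in morphine (SD, n = 3; exact permutation test, p = 0.8).

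**Figure D4:**
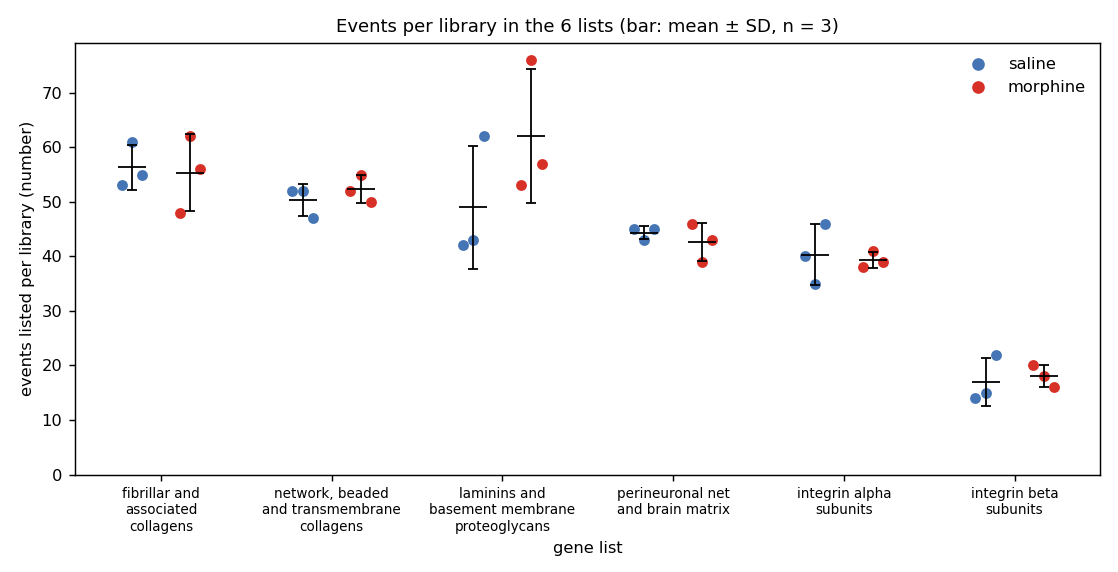
Events listed per library (y axis, number) in the 6 gene lists (x axis), with saline in blue and morphine in red, points for libraries and bars for the mean ± SD of 3 libraries. The points of both groups overlap in all 6 lists, and the laminin and basement membrane list reaches from 42 to 76.

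An event was called group-specific when all 3 libraries of one group and none of the other listed it, which held for 0.658% of all 132823 events (0.381% in the morphine group and 0.277% in the saline group). Among the 729 events of the set there were 2, both in morphine. The first was the annotated start of Itga8 (12301577), which pairs with beta 1 and binds nephronectin and fibronectin. Each morphine library listed it together with the annotated end (12109201). Saline replicate 2 listed the same end with a start inside the gene, saline replicate 3 listed Itga8 only on the opposite strand and saline replicate 1 not at all. The second was the annotated end of Col27a1 (63333162), a fibrillar collagen of cartilage. The 3 morphine libraries reached it from 3 different starts, while saline replicates 2 and 3 ended inside the gene and saline replicate 1 did not list it.

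For the number of events per gene, 1.8% of all listed genes were higher in every morphine library than in any saline library and 0.966% were lower in this sense, 2.77% in either direction. In the set 1 gene was higher and 0 were lower. This gene was Col4a3, a chain of the collagen of kidney and lung basement membranes. It was listed with 2 events in each morphine library and in no saline library, a pattern of 0.248% of all listed genes, the reverse holding for 0.099% of all genes and for none of the set. Its 3 starts and 3 ends each came from a single library and none was annotated, so that no Col4a3 event was shared by a pair of libraries. Col4a4, its neighbour on the opposite strand and its partner chain, was listed in saline replicate 1 and morphine replicates 1 and 3.

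The surrounding pathway was followed in lists of adhesion genes and of matrix enzyme genes, with 123 to 152 and 101 to 123 events per library. No event of these lists was group-specific, against 0.658% of all events in the series. At that share, lists of this size would hold few such events or none. Of 30 adhesion adaptors and other matrix receptors, such as talins, kindlins and the focal adhesion kinase, 29 were listed in all 6 libraries and the kindlin Fermt1 in none. Of 41 matrix enzymes and other matrix proteins, 36 were listed in all 6. The 5 others were Has2, a hyaluronan synthase, the lysyl oxidases Lox and Loxl2, the thrombospondin Thbs4 and the protease inhibitor Timp1. In neither list did the event number of a gene separate the groups, which held for 2.77% of all listed genes. At that share, lists of 30 and 41 genes would hold few such genes or none. Among the marker lists, 6 of 7 endothelial markers and 6 of 7 mural markers were listed in all 6 libraries. The mural list held 17, 13 and 15 events in saline and 15, 15 and 18 in morphine, which overlap. It held 1 group-specific event, where 0.658% of all events in the series were group-specific. Of its 7 genes 1, the smooth muscle actin Acta2, had fewer events in every morphine library than in any saline library. None had more, and in the other marker lists no gene separated the groups. Over all listed genes the share lower in this sense was 0.966%. The endothelial list held 28, 24 and 26 events in both groups. The part of vessel content in the values above was not tested.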

How the data were processed

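Total RNA from the NAc was sequenced in strand-specific libraries, 3 per group. Per the study's methods and the submitters' processing notes, reads were mapped with HISAT2 2.0.4 and assembled with StringTie 1.3.1. The genome build and the event caller are not given in the sources used here. The genes and biotypes used are those of GENCODE M21 on GRCm38, in which 99.2% of the listed genes were found. The event files deposited by the authors give type, gene, position and strand of each event. Their column named FPKM held only 0 and negative whole numbers, a score of unstated meaning, and was not used. The table of differential lncRNA transcripts, deposited by the authors, holds raw read counts and FPKM values normalised to length and mapped fragments. It served only for relative depth, from count over FPKM in 91 values of at least 10 counts. Its columns of fold changes and false discovery rates are the authors' own comparison and were not used. Total depth is unknown, so counting intervals were not given.

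The entries for inclusion and skipping of one feature were joined, which gave 12 event classes in 4 families. An event was identified by class, gene, strand and its exon or intron, and a start or end by its splice-side coordinate. The same exon or intron listed under several classes therefore counts as several events. Groups came from the treatment label, and replicate numbers are names in accession order. Numbers per library were compared between groups by two-sided exact permutation tests (20 arrangements), and the gene set with other protein-coding genes by exact paired permutation over libraries (64 arrangements), adjusted by Benjamini-Hochberg over 13 and 5 comparisons. The scripts were tested on simulated data. The software was Python 3.11.15 with scipy 1.17.1, pandas 2.3.3, numpy 2.4.6 and, for plots, matplotlib 3.10.9. Genes were named by a rule: the brain matrix genes, the 10 genes with most skipped-exon events and the 5 with most retained introns, every gene with a group-specific event or listed in 1 group only, and those listed in no library. The other genes named were chosen after their values were seen. The members, lists and rules were chosen with earlier results of these data known. Alternatives were leaving out each library, the 5 genes caught by symbol only, events on the other strand or events of a single library, identity by all coordinates, and division by relative depth.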

Additional observations from a re-analysis of the deposited data

How the results depend on the processing

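Of 209 alternative values, 139 kept their direction and their side of the threshold or stayed within 1.5 times a count, and 5 were differences of exactly 0. These 5 were events and exon-skipping events for events in at least 2 libraries, exon-skipping events without saline replicate 1, and integrin beta events without saline replicate 2 and without morphine replicate 1. The 13 group comparisons could not pass a threshold of 0.05 with 3 libraries per group. Their direction is therefore followed here, and p where it reached the smallest possible value. Division by relative depth turned several group differences (morphine minus saline) negative. Listed genes went to -9.84, events to -29.6, starts and ends to -22.8 and exon-skipping events to -1.27. Alternative exon ends went to -1.78, network collagen events to -6.13 and integrin beta events to -1.25. Relative depth was 1, 1.07 and 1.37 in saline and 1.20, 1.59 and 1.285 in morphine. All events per library ran only from 54660 to 62209, so they did not rise in proportion to depth. The division therefore lowers the morphine values by construction, and these signs cannot be read as an effect of morphine. Restriction to events in at least 2 libraries turned retained introns to 0.333, alternative exon ends to -2.67, network collagens to -0.333, integrin alpha subunits to 0.333 and integrin beta subunits to -1. At this setting laminin events (difference 7) and alternative exon ends each reached an exact permutation p of 0.1, without overlap between groups. So did integrin alpha events after division by relative depth (-6.25). The exact permutation p of alternative exon ends was also 0.1 without morphine replicate 1, with the opposite sign (5.33). With 1 library left out in turn, the difference in events ranged from 0.5 to 22 and that of the laminin list from 6 to 19.5, and differences that changed sign ranged from -0.167 to 4.5 for exon skipping, -6 to 2.5 for retained introns, -1.67 to 5.33 for alternative exon ends, -0.0215 to 0.0145 percentage points for the share of all events, -4.33 to 2.67 for fibrillar collagens, -3.33 to 0.167 for the brain matrix list, -3.67 to 1.83 for integrin alpha subunits and -0.5 to 3.5 for integrin beta subunits.

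With 5 libraries the paired exact permutation test against other protein-coding genes cannot go below 0.0625, and all 5 measures reached that value with their direction kept. The in-frame share then exceeded that of other genes by 8.11 to 10.7 percentage points. With all 6 libraries this excess was 9.70. It was 7.47 without the 5 genes caught by symbol only and 7.98 for events in at least 2 libraries. With 5 libraries the differences per listed gene were -0.195 to -0.173 for skipped exons and -0.333 to -0.246 for retained introns. They were -0.253 to -0.220 for starts and -0.0485 to -0.0422 for ends. Group-specific events were 1 with all coordinates as identity, and 6 to 12 with 1 library left out, where fewer libraries have to share an event. Likewise 2 to 7 genes then had event numbers that do not overlap between groups. The shares over all events and all listed genes were not computed at these settings, so these counts cannot be set against a background. No paired analysis was possible because the labels give the groups no shared replicate numbers. Absence of an event from these lists depends on depth and assembly, and total depth is unknown.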
